A study of Mus musculus with 6 samples.

Results

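Transcripts typical of thymocytes, the developing T cells of the thymus, were followed in medullary thymic epithelial cells (mTECs) of Mbd1 knockout and Mbd1 wild-type mice. The members are 31 genes chosen from textbook knowledge of T cell development: V(D)J recombination and pre-TCR genes, CD3 and zeta chains, the CD4 and CD8 coreceptors, receptor signalling proteins, surface receptors and transcription factors. A probe of the deposited expression matrix was taken for a member when its Agilent or Ensembl gene symbol equalled the member's name, and the brightest probe stood for the gene. Of the 31 genes, 30 had such a probe, and 28 were tested among 21403 genes and unnamed probes. Rag2, the second subunit of the V(D)J recombinase, was not well above background on any of the 6 scanner arrays, and Cd28, a costimulatory receptor, was so on only 1. Themis, a signalling protein of thymocyte selection, had no probe under that symbol. Through its Entrez ID it was found under the older symbol E430004N04Rik, and its values are given apart from the counts.

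The KO group was mTECs of mice lacking MBD1, a protein that binds methylated CpG sites, and the WT group was mTECs of wild-type mice. All mice were 30 days old. In both groups the sort kept live (DAPI-negative) cells with surface EPCAM and class II and removed cells with CD11c, CD45 or Ly51. RNA was amplified before Cy3 labelling and hybridised to one-colour Agilent arrays, with 3 arrays per genotype after the authors set aside 1 of 4 replicates of each. The sources used here do not give the design of the Mbd1 allele or say if mice were pooled for a replicate. If replicates shared animals, p-values measure only the spread between these arrays. Thymocytes carry CD45 on their surface, so the gate was set against the cells these genes are named for.

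The deposited matrix holds 1 log2 value per probe in each of 6 columns named KO 1 to 3 and WT 1 to 3, and its names did not match the titles of the scanner arrays. Over probes with a single spot, 5 columns had the same rank order as 1 scanner array each, and none of the 5 shared that array's full title; 4 of the 5 carried the other genotype's name. Spearman coefficients of all other column and array pairs lay between 0.952 and 0.986. KO column 2 equalled the array titled WT 1, and KO column 3 equalled the array titled WT 3. WT column 1 equalled the array titled WT 2, WT column 2 the array titled KO 1, and WT column 3 the array titled KO 3. KO column 1 equalled no array used here, and the array titled KO 2 equalled no column. Mbd1 itself had 5.64, 5.61 and 5.60 in the KO columns, near the background level of 5.50 to 5.67, against 8.83, 8.60 and 9.00 in the WT columns (difference −3.19, limma adjusted p = 5.43e-05). By scanner titles its processed intensity was 356, 17.2 and 682 on arrays titled KO 1 to 3, against 20.9, 305 and 15.6 on arrays titled WT 1 to 3. Results below use the column names. The members are also compared by array titles further below, while most other genes are compared by column names only. A direction between KO and WT therefore holds for the columns so named.

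Thymocytes first rearrange the genes of the T cell receptor (TCR) with the RAG recombinase while terminal deoxynucleotidyl transferase adds bases at the joints. They then carry CD4 and CD8 together, with CD3 chains passing receptor signals through Lck and Zap70, and they leave the cortex for the medulla when selection has succeeded. In the medulla they meet mTECs, which display proteins of other organs and delete T cells that bind these strongly. In bulk samples such as these, fewer cells of a type and less RNA per cell cannot be told apart.

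For 7 members every KO column was above every WT column by the brightest probe: Dntt, Rag1, Cd3d, Cd3e, Cd3g, Cd8b1 and Rhoh. No member lay entirely lower, and over all genes 4.29% lay entirely higher and 4.10% entirely lower. None of the 28 members passed the test (limma on the log2 values, Benjamini-Hochberg adjustment over all 21403 genes, threshold 0.05), and 0.168% of all genes did, 36 in number, of which 33 were higher in KO columns. At an unadjusted p under 0.05, 6 members were higher and none lower, beside 2.41% and 1.89% of all genes. The difference of KO minus WT was positive for 23 members and negative for 5, with a median of 0.24 on the log2 scale. Over all genes 49.1% were positive and the median was −0.005. The authors' deposited table gave its smallest false discovery rates among members to Dntt (0.210) and Cd8b1 (0.264).

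The starts of genes among these 7 are shown because they are the members whose columns separated, with 1 gene for each of 4 roles: base addition, recombination, receptor chain and signalling. Each run covers 200 bases before to 20 after the start in RefSeq's table of GRCm38.p6, and 6 of the 7 genes have an entry there. Capitals mark matches to the E box CANNTG, the Ets motif AGGAAG or CTTCCT and the Runx motif TGTGGT or ACCACA, searched on both strands.
Dntt (chr19:41029075-41029294, plus strand): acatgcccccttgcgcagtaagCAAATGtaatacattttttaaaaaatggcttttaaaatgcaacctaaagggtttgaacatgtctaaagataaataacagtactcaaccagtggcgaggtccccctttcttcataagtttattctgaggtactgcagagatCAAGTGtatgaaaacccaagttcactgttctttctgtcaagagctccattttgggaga
Rag1 (chr2:101649513-101649732, minus strand): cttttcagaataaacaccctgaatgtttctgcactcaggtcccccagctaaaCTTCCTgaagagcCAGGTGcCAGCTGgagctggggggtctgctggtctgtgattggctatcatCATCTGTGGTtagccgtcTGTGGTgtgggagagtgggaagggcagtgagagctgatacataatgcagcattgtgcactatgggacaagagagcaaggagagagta
Cd3e (chr9:45009592-45009811, minus strand): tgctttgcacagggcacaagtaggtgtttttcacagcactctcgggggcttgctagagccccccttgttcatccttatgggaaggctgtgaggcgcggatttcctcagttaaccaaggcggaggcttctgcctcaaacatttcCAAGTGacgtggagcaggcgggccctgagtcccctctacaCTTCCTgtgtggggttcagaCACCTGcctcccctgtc
Rhoh (chr5:65863384-65863603, plus strand): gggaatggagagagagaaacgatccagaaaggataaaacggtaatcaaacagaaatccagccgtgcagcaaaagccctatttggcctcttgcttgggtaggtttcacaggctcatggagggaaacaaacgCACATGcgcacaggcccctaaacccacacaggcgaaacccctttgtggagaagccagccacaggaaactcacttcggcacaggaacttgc
The Dntt window holds 2 E boxes and the Rag1 window 3, with 1 Ets and 2 Runx matches in Rag1, where the third E box and a Runx match overlap. The Cd3e window holds 2 E boxes and 1 Ets match, and the Rhoh window 1 E box. Of the 22 members with a RefSeq promoter window, 21 hold an E box and 12 an Ets match, beside 61.7% and 27.2% of 32851 windows of the same length. A Runx match occurs in 6 members and in 12.2% of all windows. The TATA motif TATAAA or TTTATA, also searched on both strands, occurs in 3 members and in 10.5% of all windows. A member with several windows counted if any of them held the match, while the percentages are of single windows, so the 2 are not like measures. These matches are letters in a window, and no binding was measured.

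Among the recombination and pre-TCR genes, Dntt and Rag1 were above WT in all KO columns and Ptcra was not. Dntt, which encodes terminal deoxynucleotidyl transferase (chromosome 19), had 10.63, 10.62 and 10.89 in KO columns 1 to 3, against 9.61, 9.97 and 9.82 in WT columns 1 to 3. The lowest KO value exceeded the highest WT value by 0.65. The difference was 0.91 ± 0.195 (SE, n = 3 columns each; 95% interval 0.48 to 1.34; limma adjusted p = 0.185), and the 3 kept Dntt probes gave 0.63 to 0.91. The dimmest of these Dntt probes overlapped between groups. Rag1, the catalytic subunit of the recombinase (chromosome 2), had 6.40, 6.35 and 6.58 in KO columns, against 6.15, 5.85 and 6.04 in WT columns. These Rag1 levels are dim, within about 1 log2 unit of the background level, and its difference was 0.43 ± 0.189 (SE; limma adjusted p = 0.999). The other kept Rag1 probe, dimmer still at 5.57 to 5.79, gave 0.12. Ptcra, the surrogate alpha chain of the pre-TCR (chromosome 17), had 6.77, 7.58 and 7.02 in KO columns, against 7.11, 7.26 and 7.05 in WT columns. Its groups overlapped fully, with a difference of −0.02 whose 95% interval ran from −0.53 to 0.49. Rag2, next to Rag1 on chromosome 2 with 0 coding genes between, stayed at 5.07 to 5.19 in all 6 columns, below the background level.

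**Figure D1:**
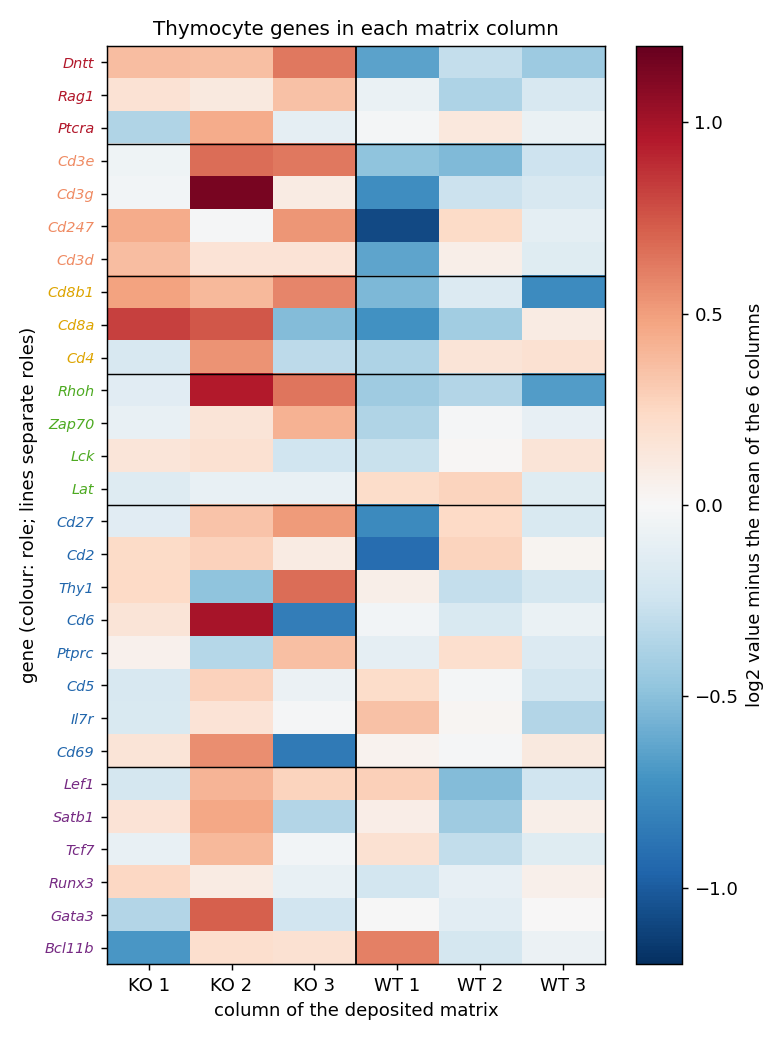
Log2 value of each of the 28 tested thymocyte genes minus its mean over the 6 matrix columns (colour bar, log2), with KO columns left of WT columns and genes grouped by role. KO column 2 is the highest column for 14 of the 28 genes and WT column 1 the lowest for 11, and Dntt, Rag1 and Cd8b1 are above their mean in all 3 KO columns.

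The CD3 and zeta chains carry the TCR's signal into the cell, and all 4 had a positive difference. Cd3e (chromosome 9) had 9.07, 9.80 and 9.75 in KO columns, against 8.64, 8.59 and 8.88 in WT columns. Its difference was 0.84 ± 0.233 (SE; limma adjusted p = 0.453), and the groups did not overlap. Cd3g had 9.38, 10.54 and 9.50 in KO columns, against 8.66, 9.15 and 9.21 in WT columns, and KO column 2 stood above the rest. Its difference was 0.80 ± 0.304 (SE; limma adjusted p = 0.953), and it was 0.43 without KO column 2. Cd3d had 10.18, 9.97 and 9.97 in KO columns, against 9.17, 9.88 and 9.66 in WT columns, a gap of only 0.09 between the groups. Cd3g, Cd3d and Cd3e lie side by side on chromosome 9 with 0 coding genes between neighbours, so their 3 readings are not 3 separate loci. Cd247, the zeta chain (chromosome 1), had 8.54, 8.08 and 8.62 in KO columns, against 7.01, 8.32 and 7.98 in WT columns. Its groups overlapped, WT column 1 was the lowest of the 6, and without that column its difference of 0.64 was 0.26. The 3 kept Cd247 probes gave 0.07 to 0.64.

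CD4 and CD8 bind class II and class I MHC beside the receptor, and immature thymocytes carry both. Cd8b1, the CD8 beta chain (chromosome 6), had 8.93, 8.82 and 9.03 in KO columns, against 7.90, 8.28 and 7.68 in WT columns. The difference of 0.97 ± 0.208 (SE; 95% interval 0.51 to 1.43) had a limma adjusted p of 0.185, and the groups were 0.55 apart. The gene's other kept probe, whose Ensembl symbol is 2410014A08Rik, gave 0.14 with overlapping groups, so the 2 probes differed in size and in overlap. Cd8a, its neighbour on chromosome 6 with 0 coding genes between, had 8.79, 8.72 and 7.46 in KO columns, against 7.25, 7.56 and 8.08 in WT columns. KO column 3 lay among the WT values, so the groups overlapped by this probe, and the 3 kept Cd8a probes gave 0.38 to 1.12. The other kept probes, at 0.38 and 1.12, lay entirely higher in KO columns, as 4.07% of all kept probes did. Cd4 had 8.20, 8.94 and 8.08 in KO columns, against 8.02, 8.55 and 8.57 in WT columns. Its difference was 0.02 with a 95% interval of −0.56 to 0.60. CD8 and CD4 readings therefore did not run in parallel in these columns, and their difference from each other was not tested.

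**Figure D2:**
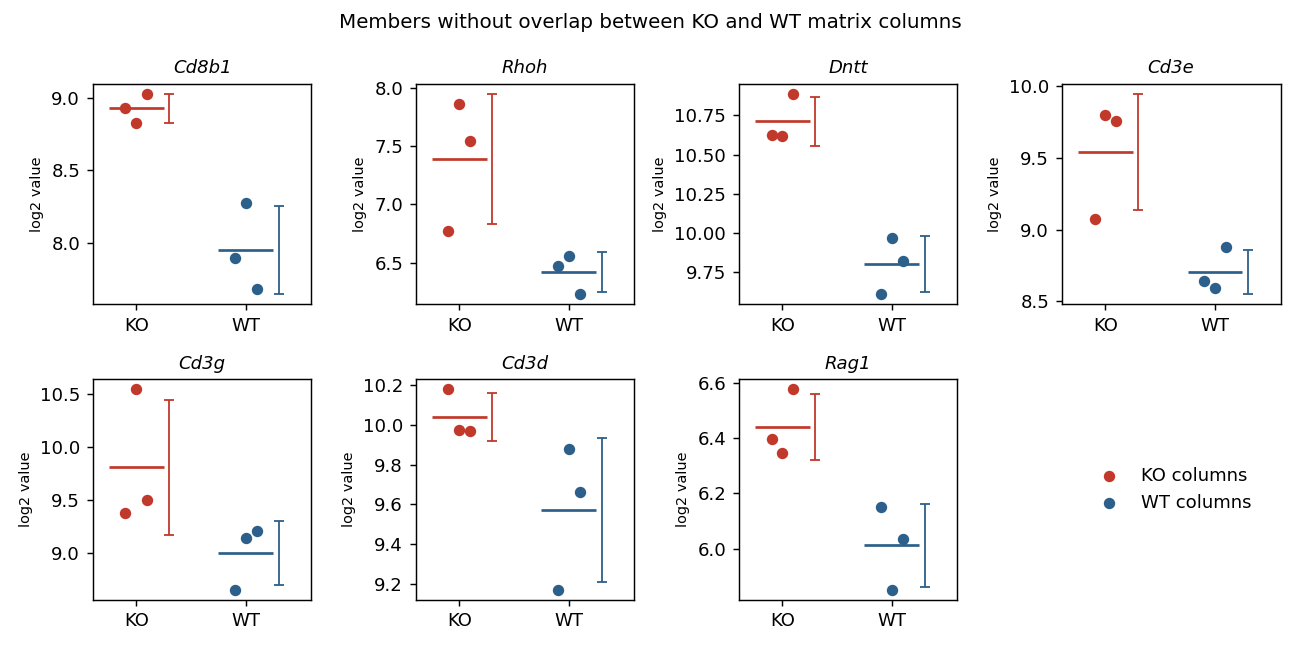
Log2 values of the 7 members whose KO and WT matrix columns did not overlap; points are columns, bars the group mean, whiskers the SD (n = 3 columns each), and each panel has its own axis. Dntt and Cd8b1 show the widest gaps, 0.65 and 0.55, and Cd3d the narrowest, 0.09.

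Of the signalling proteins, Rhoh stood apart from the kinases. Rhoh, a GTPase-deficient signalling protein needed for Zap70 function in thymocytes (chromosome 5), had 6.77, 7.86 and 7.54 in KO columns, against 6.47, 6.56 and 6.23 in WT columns. The difference was 0.97 ± 0.271 (SE; limma adjusted p = 0.459), and the groups were 0.21 apart. Zap70, the kinase that binds phosphorylated CD3 and zeta chains (chromosome 1), had 6.65, 6.89 and 7.15 in KO columns, against 6.38, 6.72 and 6.64 in WT columns. Its groups overlapped, with a difference of 0.32 (95% interval −0.14 to 0.77). Lck, the Src-family kinase bound to CD4 and CD8 (chromosome 4), had 7.12, 7.16 and 6.73 in KO columns, against 6.71, 6.99 and 7.13 in WT columns, a difference of 0.06. Lat, the adaptor that Zap70 phosphorylates (chromosome 7), had 6.77, 6.83 and 6.83 in KO columns, against 7.14, 7.19 and 6.77 in WT columns. Its difference of −0.23 was the lowest of the 28 members. Themis under its older symbol had 7.24, 7.45 and 7.22 in KO columns, against 6.66, 7.56 and 7.26 in WT columns, a difference of 0.15 with overlapping groups.

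The 8 tested surface receptors overlapped without exception, with differences from −0.09 to 0.48 and a median of 0.12. Cd27, a costimulatory receptor of the TNF receptor family (chromosome 6), had 7.85, 8.33 and 8.49 in KO columns, against 7.21, 8.22 and 7.80 in WT columns. Its difference was 0.48 (95% interval −0.13 to 1.09), the largest of these 8. Cd2, an adhesion receptor (chromosome 3), had 7.38, 7.43 and 7.25 in KO columns, against 6.24, 7.41 and 7.18 in WT columns, where column 1 was low. Its difference of 0.41 was 0.06 without WT column 1. Cd6, a scavenger receptor family protein (chromosome 19), had 8.27, 9.11 and 7.29 in KO columns, against 8.08, 7.93 and 8.04 in WT columns, so 2 KO columns lay at the extremes. Its neighbour Cd5, a negative regulator of TCR signalling, had 6.33, 6.80 and 6.45 in KO columns, against 6.74, 6.50 and 6.30 in WT columns. Cd69, which marks recent receptor signalling (chromosome 6), differed by −0.09 and was below background in KO column 3 at 5.43. Il7r, the interleukin 7 receptor alpha chain (chromosome 15), differed by −0.02, with its 2 kept probes on either side of 0. Thy1, a surface glycoprotein of mouse thymocytes (chromosome 9), differed by 0.28, and its probe had usable spots on only 3 scanner arrays. Ptprc, which encodes the CD45 used to remove cells in the sort (chromosome 1), had 8.06, 7.66 and 8.36 in KO columns, against 7.90, 8.21 and 7.84 in WT columns, a difference of 0.04. The other kept Ptprc probes gave 0.25 and 0.23.

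By their brightest probes the 6 transcription factors also overlapped in every case, with differences from −0.21 to 0.31. Over all genes 4.29% lay entirely higher and 4.10% entirely lower. Lef1, an HMG-box factor of early T cells (chromosome 3), had 8.75, 9.37 and 9.22 in KO columns, against 9.24, 8.44 and 8.72 in WT columns, a difference of 0.31. Tcf7, which encodes the related factor TCF-1 (chromosome 11), had 11.17, 11.65 and 11.23 in KO columns, against 11.44, 10.96 and 11.11 in WT columns, a difference of 0.18. The other kept Tcf7 probe gave 0.34 and lay entirely higher in KO columns. Gata3, a zinc finger factor of the T lineage (chromosome 2), differed by 0.09, and its KO column 2 was high at 10.28 against 9.21 to 9.56 in the other columns. Satb1, a chromatin organiser of thymocytes (chromosome 17), differed by 0.18, and Runx3, the factor of the CD8 lineage (chromosome 4), by 0.17. The other kept Runx3 probe gave 0.27 and also lay entirely higher in KO columns. Bcl11b, which commits cells to the T lineage (chromosome 12), had 6.77, 7.68 and 7.66 in KO columns, against 8.08, 7.26 and 7.41 in WT columns. Its difference was −0.21, and its other kept probe gave 0.10.

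**Figure D3:**
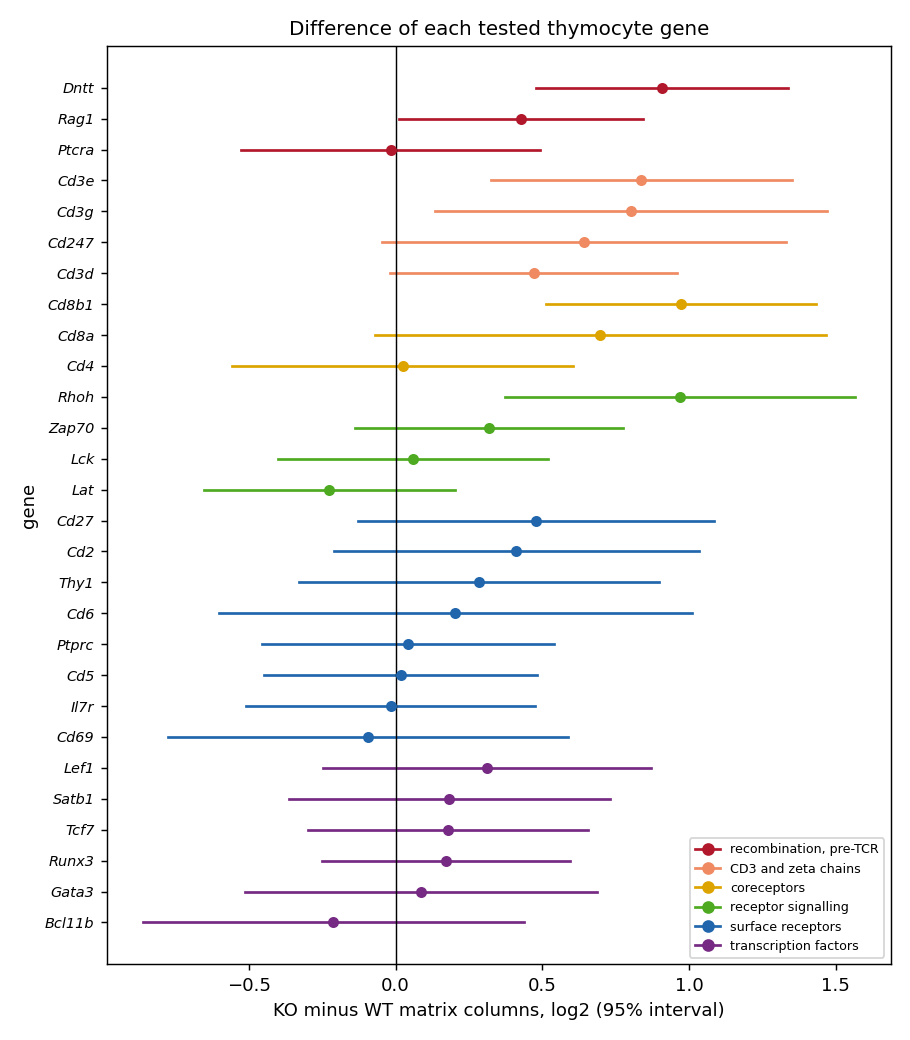
KO minus WT difference (log2, point) and its 95% interval from limma (line) for each of the 28 tested thymocyte genes, coloured by role. The intervals of Dntt, Rag1, Cd3e, Cd3g, Cd8b1 and Rhoh lie right of 0, and those of the other 22 genes, Cd3d and Cd247 among them, include 0.

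Immature-stage and mature-stage members were compared as lists, with no test. The 8 tested members of the immature list, expressed in CD4 and CD8 double-positive cells or earlier, were Dntt, Rag1, Ptcra, Cd8a, Cd8b1, Cd4, Satb1 and Rhoh. Of these, 7 had a positive difference and 4 did not overlap, with a median of 0.56. Not all are confined to that stage, as mature T cells keep CD4 or CD8. The differences were 0.97 for Cd8b1 and Rhoh, 0.91 for Dntt and 0.70 for Cd8a. They were 0.43 for Rag1, 0.18 for Satb1, 0.02 for Cd4 and −0.02 for Ptcra. Of 6 tested members of the mature list (Cd5, Cd6, Cd27, Cd69, Il7r and Runx3), 4 had a positive difference. By the brightest probe none were without overlap, and the median was 0.09. These genes are not confined to mature cells either, so the lists are not clean measures of stage. Over all genes 49.1% were positive and 4.29% lay entirely higher. The mean log2 value of the immature list was 8.35, 8.69 and 8.30 in KO columns, against 7.85, 7.97 and 7.97 in WT columns. The mature list's mean was 8.10, 8.50 and 7.87 in KO columns, against 8.02, 8.08 and 7.98 in WT columns. The immature list's columns therefore did not overlap between groups and the mature list's did. The medians differed by 0.47, and by 0.30 when all kept probes of a gene were averaged.

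Other genes of the same stages, from textbook lists that hold no member, had medians nearer 0. Of 17 other immature-stage genes 11 had a positive difference, with a median of 0.10, and none passed the test. Their mean log2 value was 8.63 to 8.70 in KO columns, against 8.61 to 8.62 in WT columns, so it did not overlap either. Arpp21, a thymocyte phosphoprotein gene, differed by 0.50 and Cxcr4, a chemokine receptor of double-positive cells, by 0.51, while Ccr9 differed by −0.43 and Cd1d1 by −0.41. Of 26 other mature-stage genes 13 were positive, with a median of 0.01, including Ccr4 at 0.93, Emb at −0.42 and Gimap1 at −0.64. Of 35 other TCR signalling genes 21 were positive, with a median of 0.03. Their mean log2 value was 8.81 to 8.85 in KO columns, against 8.69 to 8.80 in WT columns, while the mean of the other mature-stage genes overlapped. Lcp2, which encodes the adaptor SLP-76, differed by 0.71 and Skap1 by 0.66, while Malt1 differed by −0.47 and Ptpn22 by −0.55. None of the genes in these lists passed the adjusted test.

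TCR chain probes were found by their descriptions, a set added after the member values were seen. All 4 kept gamma chain probes had a positive difference, 0.53 to 0.90 with a median of 0.64, and 3 of them did not overlap. A constant-region gamma probe had 8.34, 9.36 and 8.46 in KO columns, against 7.83, 7.94 and 7.67 in WT columns, and the 4 gamma probes may share transcripts. The 10 kept beta chain probes had a median of 0.13 with 7 positive, and 1 did not overlap. The 9 kept alpha chain probes had a median of −0.02 with 4 positive, and 1 lay entirely higher. The 1 kept delta chain probe differed by 0.15 and overlapped. Over all 32235 kept probes 48.2% were positive and 4.07% lay entirely higher. The smallest adjusted p over these probes was 0.611 for the gamma constant-region probe (limma).

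Epithelial and other immune markers were read beside the members. The 20 tested mTEC markers had a median difference of −0.02 with 9 positive, and their mean log2 value was 12.46 to 12.50 in KO columns, against 12.45 to 12.49 in WT columns. Epcam, the epithelial protein of the gate, and Aire, the regulator of tissue antigens in mTECs, differed by −0.23 and 0.30. These mTEC markers were far above the background level in all 6 columns, as the labelled cell type has them. Of 10 cortical epithelial (cTEC) markers 9 were positive, with a median of 0.21 and a mean of 10.15 to 10.28 in KO columns, against 9.95 to 10.03 in WT columns. Prss16, a thymus-specific protease, had 11.39, 11.09 and 11.11 in KO columns, against 10.48, 11.02 and 10.55 in WT columns, while Ly75, a lectin-like surface receptor, differed by −0.27 and lay entirely lower.

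**Figure D4:**
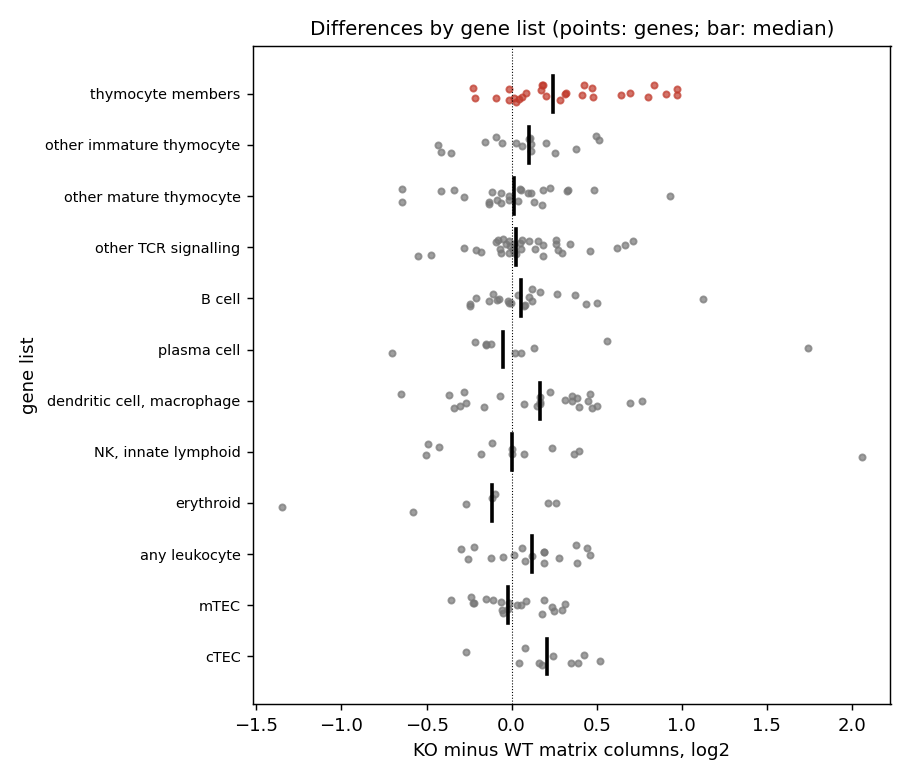
KO minus WT difference (log2) of each tested gene (points) and the median (bar) for the thymocyte members and 11 other gene lists. The members' median is 0.24, that of cTEC markers 0.21 and that of mTEC markers −0.02; Il22 is the point past 2 in the NK and innate lymphoid list.

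Of 17 genes expressed by leukocytes in general 12 were positive, with a median of 0.12 and a mean of 9.20 to 9.31 in KO columns, against 9.09 to 9.17 in WT columns. The 25 dendritic cell and macrophage markers had a median of 0.17, with 17 positive and a mean of 9.13 to 9.24 in KO columns, against 8.92 to 9.08 in WT columns. Within that list 6 markers lay entirely higher, among them Ccr7 at 0.77 and Tyrobp at 0.70, and 3 entirely lower: Cd14 at −0.37, Xcr1 at −0.28 and Lyz2 at −0.27, named after their values were seen. The 22 B cell markers had a median of 0.06, with 12 positive and Fcrla at 1.12. The 10 plasma cell markers had a median of −0.05 with 5 positive and 5 negative, and they ran from Fkbp11 at −0.71, lower in every KO column, to Jchain at 1.74, higher in every KO column. The median of 116 immunoglobulin chain probes was 7.97, 9.27 and 8.53 in KO columns, against 6.86, 6.89 and 6.95 in WT columns, and 112 had a positive difference. Of 12 natural killer and innate lymphoid markers 7 were positive, with a median of 0.004, and Il22, a cytokine of innate and some T lymphocytes, was the 1 gene of these lists that passed (2.06, limma adjusted p = 0.003). The 7 erythroid markers had a median of −0.12, with Hbb-b1 at −1.35. Their mean was 8.698 to 8.945 in KO columns, against 8.951 to 9.168 in WT columns, lower in every KO column. The members' mean log2 value was 8.46 to 8.77 in KO columns, against 8.19 to 8.31 in WT columns. The mean leukocyte, dendritic cell and macrophage, and cTEC levels and the median immunoglobulin level were thus also higher in all KO columns than in all WT columns, though not for each marker, and their part in the members' differences was not tested.

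Single columns held many of the extreme values. KO column 2 was the highest column for 14 of 28 members, beside 17.7% of the other genes, and WT column 1 the lowest for 11, beside 22.3%. Without KO column 2, 17 of 28 members were positive, beside 51.1% of all genes. Then 9 members lay entirely higher and 2 entirely lower, where 11.6% and 11.5% of all genes did. Without WT column 1, 23 were positive and 9 lay entirely higher, beside 48.3% and 8.55% of all genes. Without KO column 1, which equals no scanner array used here, 26 were positive and 9 lay entirely higher, beside 48.2% and 8.47% of all genes. Slide, known for 5 columns, was shared unevenly: KO columns 2 and 3 and WT column 1 equal arrays of slide 1, and WT columns 2 and 3 equal arrays of slide 2. Within slide 1 alone the differences were 1.14 for Dntt, 1.03 for Cd8b1, 1.23 for Rhoh, 1.13 for Cd3e, 1.36 for Cd3g, 0.80 for Cd3d and 0.31 for Rag1, from 2 KO columns and 1 WT column. These genes were named because every KO column exceeded every WT column, so their positive sign here was fixed in advance. The WT column of slide 1 is also the lowest column for 11 of 28 members. The members' median within slide 1 was 0.24, and 21 of 28 were positive, beside 50.6% of all genes.

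Grouped by scanner titles, no member passed the test. Mbd1 read 356, 17.2 and 682 on arrays titled KO 1 to 3, and 20.9, 305 and 15.6 on arrays titled WT 1 to 3. Each titled group thus mixed high and low Mbd1 readings, so this comparison cannot check the one by columns. The slide coincides with the titled genotype, so slide and title cannot be told apart, and scan times follow the slides. On log2 of the processed intensity minus each array's 75th percentile, none of 28 members passed, and 0% of 21305 genes did (limma, Benjamini-Hochberg), and at an unadjusted p under 0.05 none of the members lay higher or lower, beside 3.38% and 0.85% of all genes. The members' median was 0.20 beside 0.12 over all genes, and 20 were positive beside 63.9% of all genes. By titles the immature list's median was 0.13 and the mature list's −0.01. Il22, which passed by columns, differed by −0.71 by titles. Of the 23 members with a usable spot on all 6 arrays none were without overlap, beside 8.08% of genes entirely higher and 1.90% entirely lower. Dntt differed by −0.39, fitted on 5 arrays because its spot on the array titled KO 2 was an outlier, and Rhoh by 0.24 with an SE of 1.04. The members' median was −0.05 without the array titled KO 2 and −0.03 without the array titled WT 2.

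The array titled KO 2, which equals no matrix column, stood apart from the other 5 in the members. Mbd1 read 17.2 there. Of 23 members with a usable spot on every array it was the highest for 16 (69.6%), beside 33.8% of 20177 other genes, so it was high for many genes. On the scaled log2 intensity its median above the mean of the other 5 arrays was 1.12 for the members and 0.19 for the other genes, and 11 members exceeded the 95th percentile of the other genes, 1.30. Rhoh read 891 processed intensity units on it. The other arrays titled KO read 62.5 and 68.1 for Rhoh, against 235, 38.8 and 167 on arrays titled WT 1 to 3. Rag1 read 178 on the array titled KO 2 and 16.8 to 49.8 on the other 5. Dntt, by its probe with usable spots on all 6 arrays, read 5740 there and 414 to 1208 on the other 5. Cd3d read 3483 there and 324 to 968 elsewhere, and Cd3e 2216 there and 219 to 922 elsewhere.

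Not all members were high on that array. Ptcra read 455 there and 59.0 to 152 on the other 5, Lat 421 there and 73.9 to 118 elsewhere, and Themis under its older symbol 380 there and 42.1 to 147 elsewhere. Ptcra and Lat, whose matrix differences were −0.02 and −0.23, were thus among its high members. Cd4 read 136 there and 150 to 506 on the other 5, and Cd6 72.9 there and 101 to 553 elsewhere, the lowest of the 6 arrays for both genes. Of 4 TCR chain genes 3 were highest on it, with a scaled median of 1.48, and of 8 cTEC markers 7, with 0.58. Of 12 mTEC markers 2 were highest on it, with a median of −0.01.

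**Figure D5:**
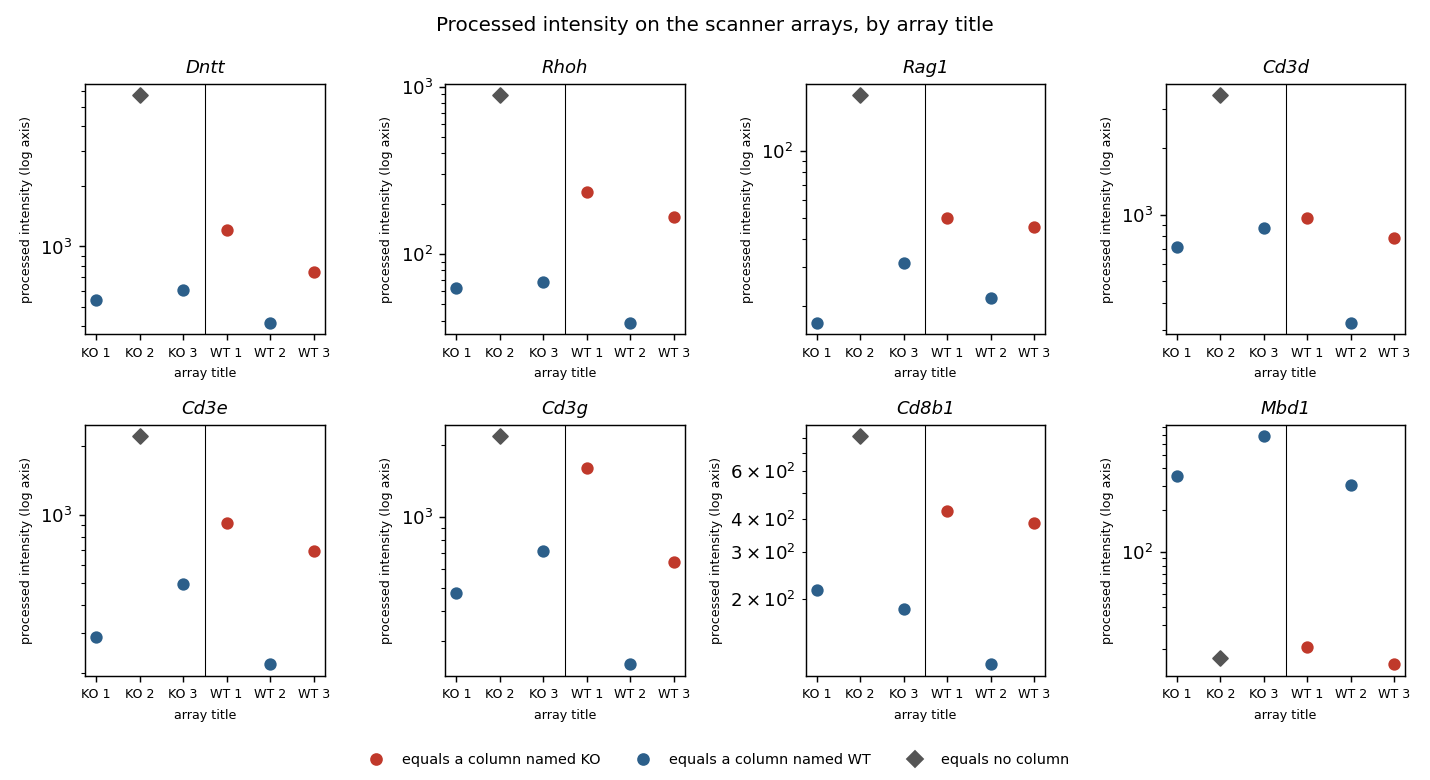
Processed intensity (log axis, not scaled between arrays) of the 7 members without overlap in the matrix and of Mbd1 on the 6 scanner arrays by title, coloured by the name of the matrix column with the same ranks. The array titled KO 2 (diamond) equals no column and is the highest for all 7 members, while Mbd1 reads 17.2 there; Dntt is shown by its probe with usable spots on all 6 arrays.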

How the data were processed

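The authors' deposited matrix holds log2 values per probe in 6 columns; the tool behind it is unstated, and its column medians of 7.13 to 7.14 nearly agree. The matrix also holds the authors' log2 ratio and adjusted p-value, quoted only as the authors' deposited table. Per the file headers, the scanner files hold processed intensity on a linear scale from Agilent Feature Extraction 10.7.3.1 (10.6 per the submitters' processing notes), not normalized between arrays. Each array had 43379 spots of 41174 probes, 72.6% to 79.4% of probes well above background and none saturated; the number of arrays limits precision.

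A probe was kept where well above background on at least 3 of 6 arrays, which left 32235 probes (47 of the members' 57). Outlier spots (397 to 1306 per array) were left out. Each gene took its brightest kept probe. Symbols came from Entrez ID for 32777 probes, accession for 62, the file for 2717 and the member rule for 57; 5561 had none. Matrix values were fitted on a group term with limma (version 3.58.1, functions lmFit and eBayes; R 4.3.3) and p-values were adjusted by Benjamini-Hochberg; the fit was tested on simulated data. Scanner intensities (floor 1) were scaled to each array's 75th percentile. Matrix values carry no background subtraction, so differences of dim genes are understated. No build is named for the matrix's coordinates, so genes carry only their chromosome, taken from RefSeq GRCm38.p6.

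Members, lists and tests were chosen with earlier results of these data known. Every member is described; of each other list up to 4 tested genes of smallest p were named (1 such gene is not reported here), and Aire, Cd14, Xcr1, Lyz2 and the TCR chain probes were added after their values were seen. Alternatives were the filter, probe averaging, moderation, blocks, left-out columns, scaling and background.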

Additional observations from a re-analysis of the deposited data

How the results depend on the processing

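No member passed under any alternative, by columns (smallest limma adjusted p 0.099 to 0.623) or by titles (0.834 to 0.9999). The titled groups mixed high and low Mbd1 readings, so their result is no check on that by columns. The members' median difference moved by less than the replicate spread, staying at 0.163 to 0.317 by columns. By titles the median ranged from −0.05 to 0.55 with 1 array left out. Genes passing over all genes numbered 36, against 19 with no filter, 62 with the replicate block, 8 with background subtracted and 0 with slide as a block over 5 columns, and 17 to 56 with 1 column left out (17 without WT column 2, 56 without KO column 3). Same-numbered columns did not deviate together (correlations −0.28, −0.17 and −0.33), so the numbers are not taken as pairs, and the block moved the count of all genes only. The immature minus mature difference of 0.47 was 0.30 with probes averaged, 0.67 with slide as a block, 0.72 with background subtracted and 0.33 to 0.60 with 1 column left out. Members near 0 changed sign: Il7r to 0.0090 with probes averaged, and with slide as a block Cd5 to −0.11, Ptcra to 0.19, Satb1 to −0.023 and Tcf7 to −0.0012. With 1 column left out, differences ran from −0.37 to 0.085 for Bcl11b, −0.20 to 0.16 for Il7r, −0.24 to 0.16 for Ptcra, −0.24 to 0.19 for Cd4, −0.12 to 0.13 for Cd5, −0.24 to 0.67 for Cd6, −0.25 to 0.29 for Gata3, −0.056 to 0.20 for Lck, −0.0013 to 0.40 for Satb1, −0.39 to 0.31 for Cd69 and −0.13 to 0.23 for Ptprc. The causes were not tested. Normexp on mean signals was not run, as the scanner files used here hold no such column; normexp on median signals, chosen after seeing the data, was run instead, and the counts without single columns were also added then.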
